A study of Homo sapiens with 12 samples.

Results

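Interferon-stimulated genes are the effector genes that cells switch on when they sense an interferon, and 38 of them were followed here in a breast cancer cell line treated with an inhibitor of the histone methyltransferase DOT1L. The 38 genes were taken from a list of symbols, and all 38 had a row among the 57783 genes of the count table, matched by Ensembl ID. The cells were MDA-MB-468, an established human triple-negative breast cancer line. They received 0.5 µM EPZ5676, a DOT1L inhibitor, or the solvent DMSO for 10 days and were then sorted by flow cytometry into ALDH1+ and ALDH1- cells. ALDH1 activity is widely used as a marker of stem-like cells in breast tumours. The 4 groups were EPZ5676 ALDH1+, EPZ5676 ALDH1-, DMSO ALDH1+ and DMSO ALDH1-, each with 3 biological replicates according to the labels, which gave 12 libraries from total RNA of 1 cell line.

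Type I and type III interferons bind receptors at the cell surface, and the kinases on those receptors activate STAT proteins. STAT2 and IRF9 belong to a complex that binds the interferon-stimulated response element (ISRE) in promoters of target genes. Interferon gamma acts mainly through another sequence, the GAS element. The targets include proteins that bind foreign RNA, the ubiquitin-like modifier ISG15 with its ligases, antiviral GTPases, and the STAT and IRF factors themselves. Many tumour lines keep some of these genes active without added interferon.

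Promoters were read from RefSeq (GRCh38.p14) as the window of 250 bases before to 50 after each gene start, and 31 of the 38 members matched one; IFIT2, OAS2, OASL, MX2, USP18, IRF7 and TRIM22 did not. The ISRE core, spelled as GAAA, any 2 bases and GAAA and searched on both strands, was in the windows of 22 of the 31, or 71.0% (95% Wilson interval 53.4 to 83.9), against 1195 of 27305 genes with a window, or 4.38%. The longer form, which adds CT to the end of the core and so matches only where the core does, was in 14 members, or 45.2%, against 0.322% of all genes. A GAS motif, TTCNNNGAA, was in 10 members, or 32.3%, against 9.38% of all genes. A match of letters is a description of the sequence and not a measured binding site. The members were a chosen list, so the interval and these shares are a description and not a test.

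The stretches printed next are the 150 bases before the start of the 4 members with the largest mean change under EPZ5676 among those with an ISRE core in the window. The last is 41 bases before the start of PARP9, where 1 match lies in the windows of both PARP9 and its divergent neighbour DTX3L. Each is written 5′ to 3′ on the strand of the gene, and capitals mark the ISRE core, which in all 5 reads TTTC, any 2 bases and TTTC on this strand.
IFI44, chr1:78649639-78649788, plus strand: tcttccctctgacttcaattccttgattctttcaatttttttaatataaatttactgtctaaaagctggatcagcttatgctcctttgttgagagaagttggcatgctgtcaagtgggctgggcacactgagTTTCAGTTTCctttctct
HERC5, chr4:88456969-88457118, plus strand: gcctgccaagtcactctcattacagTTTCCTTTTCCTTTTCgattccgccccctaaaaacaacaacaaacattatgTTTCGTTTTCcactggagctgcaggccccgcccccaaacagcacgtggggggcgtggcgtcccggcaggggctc
IFIT1, chr10:89392473-89392622, plus strand: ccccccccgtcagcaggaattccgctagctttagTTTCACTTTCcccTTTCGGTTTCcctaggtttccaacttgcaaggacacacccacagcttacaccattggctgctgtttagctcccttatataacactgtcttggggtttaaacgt
RSAD2, chr2:6877627-6877776, plus strand: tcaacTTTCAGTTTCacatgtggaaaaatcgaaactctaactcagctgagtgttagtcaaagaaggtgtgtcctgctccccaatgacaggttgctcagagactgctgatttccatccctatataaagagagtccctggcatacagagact
PARP9, chr3:122564301-122564341, minus strand: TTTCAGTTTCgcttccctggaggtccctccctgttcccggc
HERC5 holds 3 matches, of which the first 2 overlap, and IFIT1 holds 2. IFI44, HERC5, IFIT1 and RSAD2 all rose in both populations, while PARP9 and DTX3L were not called in either.

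The libraries held 24348594 to 80195050 counted reads, and the 38 members together took 0.0347 to 0.0509% of them. Levels are given in CPM, a gene's reads per 1000000 in its library after TMM scaling. A gene was called when its adjusted p in edgeR's quasi-likelihood test, fitted to all 12 libraries and adjusted over 16327 genes by Benjamini-Hochberg, was below 0.05. Of the 38 members, 34 passed the filter on low counts and could be tested, and IFI27, IFI44L, OASL and EPSTI1 did not. Passing this filter needed counts in only 1 group, so a member near 0 in DMSO could enter the test through its EPZ5676 libraries.

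A large share of the listed members was higher under EPZ5676 in both sorted populations. The list was chosen with earlier results of these data known, so the shares below describe it and are not a test. In ALDH1+ cells 20 of the 34 tested members rose, 2 fell (MX2 and GBP1) and 12 were not called, against 17.8% higher and 13.7% lower over all genes tested. In ALDH1- cells 21 rose, 0 fell and 13 were not called, against 13.6% higher and 9.04% lower over all genes. The same 19 members rose in both populations, against 12.1% of all genes, and 0 fell in both, against 6.63% of all genes. Without EPZ5676 ALDH1- replicate 2, 13 members were called higher in ALDH1- cells and 12 in both populations. The median log2 fold change of the tested members was 0.62 in ALDH1+ cells and 0.67 in ALDH1- cells, against -0.01 and -0.02 over all genes. The 19 were IFIT1, IFIT2, IFIT3, IFIT5, IFI6, IFI35, IFI44, ISG15, ISG20, OAS1, OAS2, RSAD2, CMPK2, HERC5, HERC6, DDX60, XAF1, SAMD9 and SAMD9L. MX1 was called higher in ALDH1+ cells, and IRF1 and BST2 in ALDH1- cells. The members not called in either were IFIH1, OAS3, USP18, STAT2, IRF7, IRF9, PARP9, PARP14, DTX3L and TRIM22.

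The change was seen in each treated library. The mean log2 level of the 34 members relative to the DMSO mean of the same population was 0.67, 0.70 and 0.71 in the EPZ5676 ALDH1+ libraries, against -0.02, -0.03 and 0.05 in the DMSO ALDH1+ libraries. It was 0.68, 0.77 and 0.58 in the EPZ5676 ALDH1- libraries, against 0.02, 0.06 and -0.08 in the DMSO ALDH1- libraries. All 6 treated libraries lay above all 6 untreated ones. The cells were sorted after treatment and replicate numbers paired the libraries, so the ALDH1+ and ALDH1- libraries are not independent of each other. In ALDH1+ cells 21 members had every EPZ5676 library above every DMSO library and 6 had every one below, against 22% and 19.3% of all genes. In ALDH1- cells these counts were 20 and 0, against 19.7% and 19.4% of all genes. In total CPM the change was smaller. The 38 members summed to 428 to 438 CPM in EPZ5676 ALDH1+ libraries against 356 to 362 CPM in DMSO ALDH1+ libraries. In ALDH1- cells the sums were 448 to 499 CPM with EPZ5676 against 386 to 413 CPM with DMSO. In sorted pools, more cells with a transcript and more transcript per cell cannot be told apart.

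**Figure D1:**
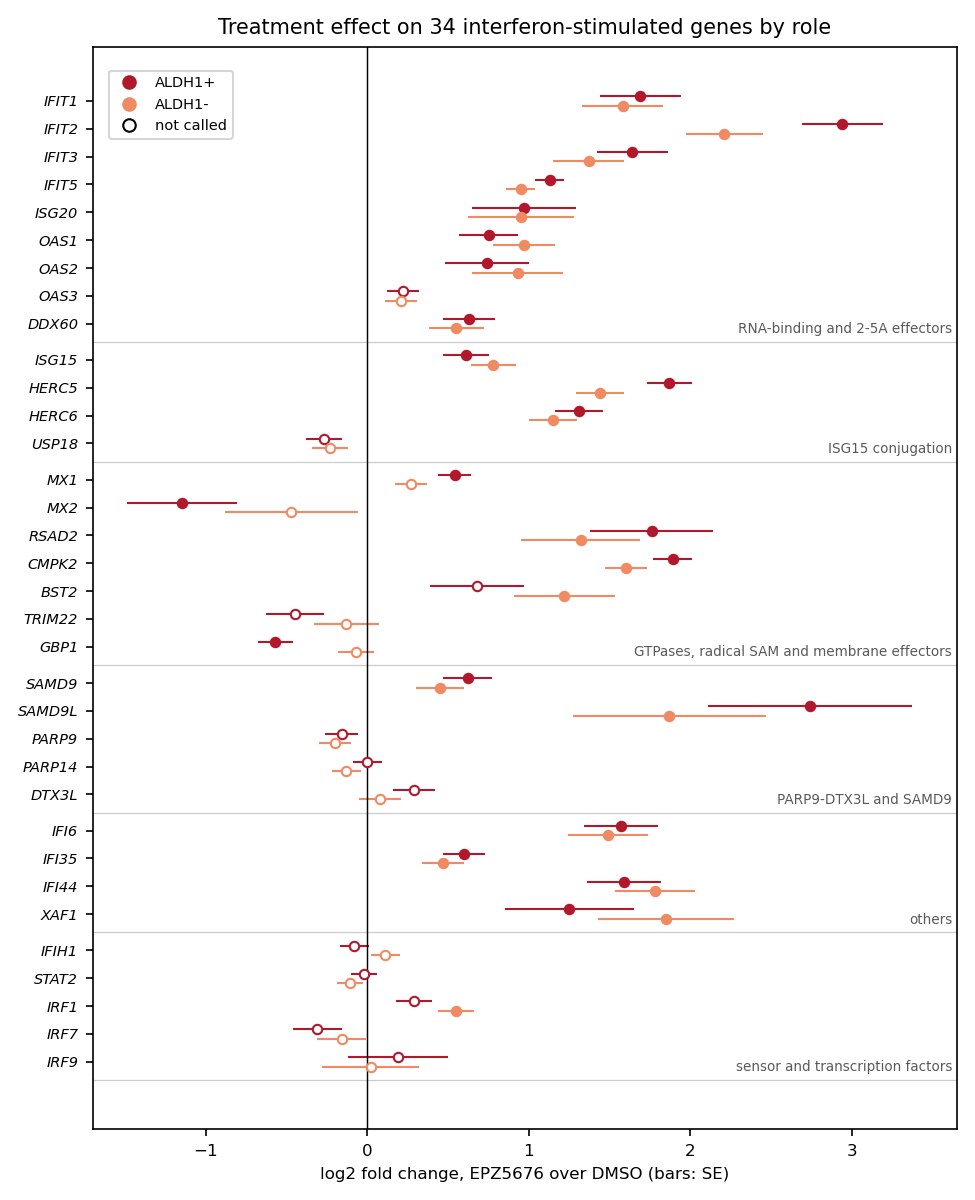
Log2 fold change (EPZ5676 over DMSO, x axis) of the 34 tested interferon-stimulated genes, grouped by role, in ALDH1+ cells (dark red) and ALDH1- cells (orange), with bars for 1 SE and open points for genes not called. The RNA-binding and ISG15 groups lie mostly to the right of 0, with IFIT2 at 2.94 and 2.21. STAT2, IRF7 and IRF9 have open points, with IRF7 at -0.31 in ALDH1+ and -0.16 in ALDH1- cells.

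Effectors that bind or cut RNA formed the group with the most calls. In each population 8 of its 9 tested members rose and 0 fell, and OAS3 was not called in either. Over all genes 17.8% rose and 13.7% fell in ALDH1+ cells, and 13.6% and 9.04% in ALDH1- cells. IFIT proteins bind foreign RNA by its end, and the 4 IFIT genes are neighbours on chromosome 10. IFIT2 (ENSG00000119922) had the largest log2 fold change of the 34 tested members in each population. It had 3.32, 4.78 and 3.30 CPM in EPZ5676 ALDH1+ libraries, against 0.546, 0.279 and 0.602 CPM in DMSO ALDH1+ libraries. The log2 fold change was 2.94 (SE 0.25, adjusted p = 9.76e-07 in edgeR). In ALDH1- cells IFIT2 had 3.75, 5.51 and 4.56 CPM with EPZ5676, against 1.06, 0.85 and 1.08 CPM with DMSO, a log2 fold change of 2.21 (SE 0.24). Every treated library was above every untreated one, and DMSO levels were lower in ALDH1+ than in ALDH1- cells without a call (log2 difference -0.98, adjusted p = 0.172 in edgeR).

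IFIT1 and IFIT3 were also higher under EPZ5676 in both populations. IFIT1 had 1.64, 2.14 and 2.33 CPM in EPZ5676 ALDH1+ libraries, against 0.582, 0.358 and 0.832 CPM in DMSO ALDH1+ libraries (log2 fold change 1.69, SE 0.25). In ALDH1- cells it had 2.12, 2.95 and 2.85 CPM with EPZ5676, against 0.733, 0.918 and 0.998 CPM with DMSO (1.58, SE 0.25). IFIT1 therefore separated by treatment in all 12 libraries. IFIT3 had 5.53, 6.48 and 6.84 CPM in EPZ5676 ALDH1+ libraries, against 1.20, 2.39 and 2.37 CPM in DMSO ALDH1+ libraries (1.64, SE 0.22). The values of IFIT3 in ALDH1- cells were 5.63, 6.81 and 6.03 CPM with EPZ5676, against 2.79, 2.69 and 1.65 CPM with DMSO (1.37, SE 0.22). IFIT5 was the family member with the highest level, at 20.6 ± 0.93 CPM in EPZ5676 ALDH1+ and 9.44 ± 0.59 CPM in DMSO ALDH1+ libraries (SD, n = 3 each), and its log2 fold changes were 1.13 in ALDH1+ and 0.95 in ALDH1- cells. The family shares sequence, so reads could be split between its members, and IFIT2 also shares exon bases with AL353751.1 on the same strand and with LIPA on the other. The labels and notes used here do not say how strands and shared reads were counted.

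The oligoadenylate synthetases make the messenger that activates the nuclease RNase L, and they did not move as a block. OAS1 averaged 12.5 ± 2.2 CPM in EPZ5676 ALDH1+ and 7.40 ± 0.52 CPM in DMSO ALDH1+ libraries (SD, n = 3 each), with log2 fold changes of 0.75 in ALDH1+ and 0.97 in ALDH1- cells. OAS2 stayed near 1 CPM, with log2 fold changes of 0.74 (adjusted p = 0.0426 in edgeR) and 0.93 (adjusted p = 0.0252). In ALDH1+ cells the OAS2 call was lost with DESeq2 (adjusted p = 0.069), in the fit to the groups compared alone (0.06) and without any 1 of 8 libraries, and in ALDH1- cells it was lost without any 1 of 3. OAS3, the member of the family with the most reads, averaged 29.1 ± 3.0 CPM in EPZ5676 ALDH1+ and 25.0 ± 2.5 CPM in DMSO ALDH1+ libraries, and its log2 fold changes of 0.22 and 0.21 were not called, except in ALDH1+ cells without DMSO ALDH1+ replicate 1 (adjusted p = 0.05 after rounding). The exonuclease ISG20 had log2 fold changes of 0.97 and 0.95, and in ALDH1- cells its adjusted p was 0.0497 in edgeR, 0.083 with limma-voom and 0.051 with at least 1 CPM in 3 libraries. ISG20 lost its call without any 1 of 4 libraries in ALDH1+ cells and any 1 of 8 in ALDH1- cells. DDX60, a helicase that assists RNA sensing, had log2 fold changes of 0.63 and 0.55. Its call in ALDH1- cells was lost without DMSO ALDH1- replicate 1 or 3 or EPZ5676 ALDH1- replicate 2.

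ISG15 conjugation attaches a ubiquitin-like protein to other proteins. The modifier ISG15 and the ligase HERC5 rose, while the protease USP18 did not. HERC5, the main ISG15 ligase of human cells, had 11.3, 10.8 and 10.7 CPM in EPZ5676 ALDH1+ libraries, against 2.69, 3.19 and 3.04 CPM in DMSO ALDH1+ libraries (log2 fold change 1.87, SE 0.14). In ALDH1- cells HERC5 had 9.75, 11.3 and 10.7 CPM with EPZ5676, against 3.96, 4.76 and 2.96 CPM with DMSO (1.44, SE 0.15). The treated libraries of both populations held about the same HERC5 level. HERC6, its neighbour on chromosome 4, averaged 9.93 ± 0.45 CPM in EPZ5676 ALDH1+ and 3.98 ± 0.60 CPM in DMSO ALDH1+ libraries (SD, n = 3 each), with log2 fold changes of 1.31 and 1.15. ISG15 averaged 12.1 ± 1.6 CPM in EPZ5676 ALDH1+ and 7.93 ± 1.2 CPM in DMSO ALDH1+ libraries, with log2 fold changes of 0.61 and 0.78. Per kilobase of exon, ISG15 had the highest mean level of all members in each EPZ5676 group, at 12.8 CPM per kb in ALDH1+ and 13.9 CPM per kb in ALDH1- cells. USP18, the protease that removes ISG15 and dampens receptor signalling, averaged 14.8 ± 0.55 CPM in EPZ5676 ALDH1+ and 17.8 ± 0.32 CPM in DMSO ALDH1+ libraries. Its log2 fold change in ALDH1+ cells was -0.27 (adjusted p = 0.0733 in edgeR), and with the replicate number as a block it was called lower (adjusted p = 0.033), as it was with limma-voom (0.047) and without EPZ5676 ALDH1- replicate 1 (0.033) or 3 (0.029). In ALDH1- cells USP18 was at -0.23 and was not called, except without EPZ5676 ALDH1- replicate 3 (-0.38, adjusted p = 0.018).

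**Figure D2:**
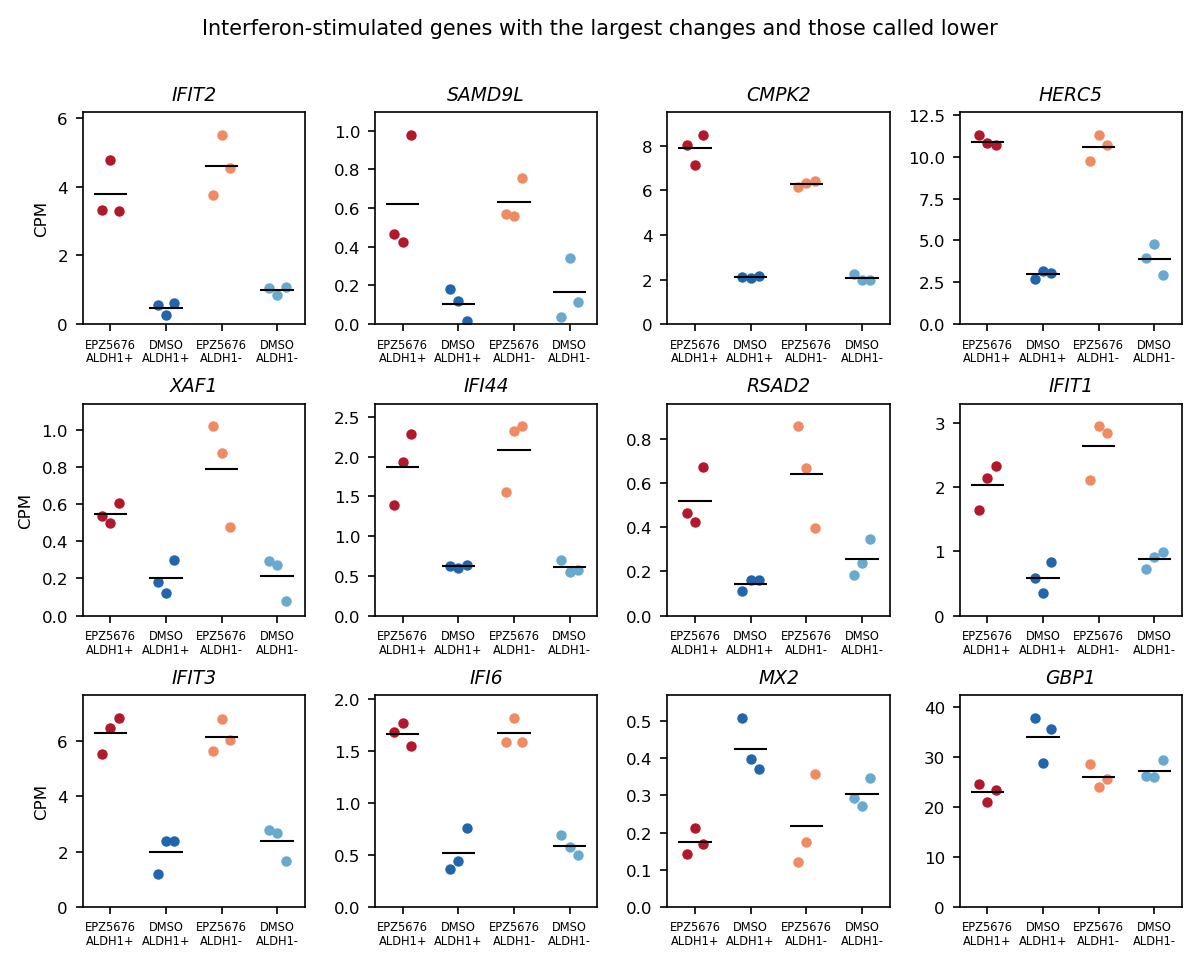
Level (CPM, linear axes from 0) in each of the 3 libraries of every group for the 10 members with the largest called changes and for MX2 and GBP1, the members called lower, with a line at each group mean. EPZ5676 libraries lie above DMSO libraries for the first 10 genes, while MX2 and GBP1 are lower in EPZ5676 ALDH1+ than in DMSO ALDH1+ libraries.

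Among the GTPases, membrane proteins and radical SAM enzyme, calls went both ways in ALDH1+ cells. Of 7 tested members 3 rose and 2 fell in ALDH1+ cells (17.8% and 13.7% of all genes), while 3 rose and 0 fell in ALDH1- cells (13.6% and 9.04% of all genes). CMPK2, a mitochondrial nucleotide kinase, had 8.06, 7.13 and 8.49 CPM in EPZ5676 ALDH1+ libraries, against 2.11, 2.07 and 2.16 CPM in DMSO ALDH1+ libraries (log2 fold change 1.89, SE 0.12). In ALDH1- cells CMPK2 had 6.16, 6.35 and 6.42 CPM with EPZ5676, against 2.27, 1.97 and 2.00 CPM with DMSO (1.60, SE 0.13). CMPK2 was tight within each group and separated by treatment in both populations. RSAD2, or viperin, which blocks viral replication, lies beside CMPK2 on chromosome 2. It had 0.464, 0.426 and 0.674 CPM in EPZ5676 ALDH1+ libraries, against 0.109, 0.159 and 0.159 CPM in DMSO ALDH1+ libraries (1.76, SE 0.38). In ALDH1- cells RSAD2 had 0.857, 0.667 and 0.396 CPM with EPZ5676, against 0.183, 0.238 and 0.346 CPM with DMSO (1.32, SE 0.37). RSAD2 rested on few reads, 67 in EPZ5676 ALDH1+ and 16 in DMSO ALDH1+ libraries, and its call in ALDH1- cells was lost without any 1 of 4 libraries (adjusted p = 0.061 to 0.094 in edgeR). Exons of RSAD2 and CMPK2 overlap on opposite strands, so the split of reads between them is uncertain.

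MX1 and MX2, a pair of dynamin-like antiviral GTPases on chromosome 21, had opposite calls in ALDH1+ cells. MX1 averaged 20.9 ± 1.6 CPM in EPZ5676 ALDH1+ and 14.4 ± 0.63 CPM in DMSO ALDH1+ libraries (SD, n = 3 each), a log2 fold change of 0.54. In ALDH1- cells MX1 was at 0.27 (adjusted p = 0.0675 in edgeR), and it was called higher with the replicate block (adjusted p = 0.038) and without EPZ5676 ALDH1- replicate 3 (0.018). MX2 had 0.143, 0.213 and 0.169 CPM in EPZ5676 ALDH1+ libraries, against 0.509, 0.398 and 0.372 CPM in DMSO ALDH1+ libraries, a log2 fold change of -1.15 (adjusted p = 0.0179 in edgeR). The groups did not overlap, but they rested on 26 reads with EPZ5676 and 45 reads with DMSO, a ratio of CPM of 0.458 with an exact 95% counting interval of 0.272 to 0.759. The MX2 call was lost with DESeq2 (adjusted p = 0.071), without DMSO ALDH1+ replicate 1 (0.057) and without EPZ5676 ALDH1+ replicate 1 (0.056). In ALDH1- cells MX2 had 0.122, 0.175 and 0.357 CPM with EPZ5676, against 0.293, 0.272 and 0.346 CPM with DMSO, and these groups overlapped.

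GBP1, a guanylate-binding protein that is a classic target of interferon gamma, fell in ALDH1+ cells. It had 24.5, 20.9 and 23.4 CPM in EPZ5676 ALDH1+ libraries, against 37.8, 28.7 and 35.5 CPM in DMSO ALDH1+ libraries (log2 fold change -0.57, SE 0.11, adjusted p = 0.000911 in edgeR). In ALDH1- cells GBP1 had 28.5, 23.9 and 25.5 CPM with EPZ5676, against 26.1, 26.0 and 29.4 CPM with DMSO (-0.07, SE 0.11). GBP1 was the member with the smallest p in the test of the difference between populations (log2 difference of effects -0.51, SE 0.15), and its adjusted p there was 0.979 in edgeR. BST2, or tetherin, which holds budding virus at the membrane, had log2 fold changes of 0.68 in ALDH1+ cells (adjusted p = 0.0903 in edgeR) and 1.22 in ALDH1- cells (adjusted p = 0.00991). BST2 was also called higher in ALDH1+ cells with the replicate block (adjusted p = 0.014), with no filter (0.018) and without EPZ5676 ALDH1+ replicate 3 (0.047) or EPZ5676 ALDH1- replicate 3 (0.037), and without EPZ5676 ALDH1- replicate 2 it was not called in ALDH1- cells (0.058). TRIM22, an antiviral ubiquitin ligase, was at -0.45 and -0.13 and was not called.

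In the group of the SAMD9 pair, PARP9, PARP14 and DTX3L, 2 of 5 tested members rose and 0 fell in each population. Over all genes 17.8% rose and 13.7% fell in ALDH1+ cells, and 13.6% and 9.04% in ALDH1- cells. Calls of SAMD9, SAMD9L, PARP9 and DTX3L changed in some alternative fits, as given below. SAMD9 and SAMD9L, neighbours on chromosome 7 that restrict poxviruses, rose in both populations, and PARP9, PARP14 and DTX3L, which act in ADP-ribosylation and ubiquitination, were not called in either. SAMD9L had 0.464, 0.426 and 0.977 CPM in EPZ5676 ALDH1+ libraries, against 0.182, 0.119 and 0.0177 CPM in DMSO ALDH1+ libraries (log2 fold change 2.74, SE 0.63). In ALDH1- cells SAMD9L had 0.571, 0.561 and 0.753 CPM with EPZ5676, against 0.0367, 0.340 and 0.115 CPM with DMSO (1.87, SE 0.60). The groups did not overlap, yet the DMSO ALDH1+ libraries held 9 reads in all against 76 with EPZ5676, a ratio of CPM of 6.70 with an exact counting interval of 3.35 to 15.2. Without DMSO ALDH1+ replicate 3 the log2 fold change in ALDH1+ cells was 1.91, without DMSO ALDH1+ replicate 1 it was 3.46, and without DMSO ALDH1- replicate 2 that in ALDH1- cells was 3.01. The SAMD9L call in ALDH1- cells was lost without any 1 of 5 of its 6 libraries (adjusted p = 0.069 to 0.12 in edgeR). SAMD9 averaged 24.3 ± 6.6 CPM in EPZ5676 ALDH1+ and 15.8 ± 0.56 CPM in DMSO ALDH1+ libraries (SD, n = 3 each). Its log2 fold changes were 0.62 and 0.45, and in ALDH1- cells it was not called with limma-voom (adjusted p = 0.056) or without any 1 of 8 libraries (0.051 to 0.15).

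PARP14 and DTX3L carried the most reads of the members. PARP14 averaged 53.7 ± 1.7 CPM in EPZ5676 ALDH1+ and 53.9 ± 5.8 CPM in DMSO ALDH1+ libraries (SD, n = 3 each), a log2 fold change of 0.00 with an SE of 0.09. PARP9 was at -0.16 in ALDH1+ and -0.20 in ALDH1- cells, and without EPZ5676 ALDH1+ replicate 3 it was called lower in ALDH1+ cells (-0.27, adjusted p = 0.046). DTX3L averaged 47.5 ± 6.1 CPM in EPZ5676 ALDH1+ and 39.2 ± 7.3 CPM in DMSO ALDH1+ libraries, a log2 fold change of 0.29 that was not called (adjusted p = 0.112 in edgeR). It was called higher with the replicate block (adjusted p = 0.0023), with no filter (0.019) and without DMSO ALDH1+ replicate 2 (0.017). In ALDH1- cells DTX3L was at 0.08. PARP9 and DTX3L overlap on opposite strands, and the split of their reads is uncertain.

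The other 4 tested effectors rose in both populations, against 12.1% of all genes, and 3 more of this group did not pass the filter. IFI44, an induced protein of the cytoplasm, had 1.39, 1.93 and 2.29 CPM in EPZ5676 ALDH1+ libraries, against 0.618, 0.597 and 0.637 CPM in DMSO ALDH1+ libraries (log2 fold change 1.59, SE 0.23). In ALDH1- cells IFI44 had 1.55, 2.32 and 2.38 CPM with EPZ5676, against 0.696, 0.544 and 0.576 CPM with DMSO (1.78, SE 0.25). Its DMSO libraries of both populations lay within a narrow band. IFI6, a small hydrophobic protein with anti-apoptotic action, had 1.68, 1.77 and 1.55 CPM in EPZ5676 ALDH1+ libraries, against 0.364, 0.438 and 0.761 CPM in DMSO ALDH1+ libraries (1.57, SE 0.23). In ALDH1- cells IFI6 had 1.59, 1.82 and 1.59 CPM with EPZ5676, against 0.696, 0.578 and 0.499 CPM with DMSO (1.49, SE 0.25). IFI6 separated by treatment in all 12 libraries. XAF1, a pro-apoptotic partner of the inhibitor XIAP, had 0.535, 0.501 and 0.607 CPM in EPZ5676 ALDH1+ libraries, against 0.182, 0.119 and 0.301 CPM in DMSO ALDH1+ libraries (1.25, SE 0.40). In ALDH1- cells XAF1 had 1.02, 0.877 and 0.476 CPM with EPZ5676, against 0.293, 0.272 and 0.0768 CPM with DMSO (1.85, SE 0.42). The groups of XAF1 did not overlap, but in ALDH1+ cells its call was lost without DMSO ALDH1+ replicate 1 or 2 or any 1 of the 3 EPZ5676 ALDH1+ libraries. IFI35 had log2 fold changes of 0.60 and 0.47, and in ALDH1- cells its call was lost without any 1 of 4 libraries (adjusted p = 0.054 to 0.092 in edgeR).

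The 4 members below the filter had few reads. IFI27 had 18 reads in EPZ5676 ALDH1- libraries and 1 in DMSO ALDH1- libraries, a ratio of CPM of 19 with an exact counting interval of 3.01 to 793, or of 6.34 with the DMSO group set to the floor of 3 reads. In ALDH1+ cells IFI27 had 15 reads with EPZ5676 and 5 with DMSO, and the interval of the ratio, 0.822 to 8.37, included 1. EPSTI1 had 22 reads in EPZ5676 ALDH1+ libraries and 7 in DMSO ALDH1+ libraries (ratio 2.49, interval 1.03 to 6.91). In ALDH1- cells EPSTI1 had 12 and 5 reads (ratio 2.54, interval 0.832 to 9.19), and the groups overlapped. For OASL the ratios were 1.59 and 1.48, with intervals that included 1, and IFI44L never had more than 1 read in a library. These intervals cover counting error only and no spread between replicates.

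Of the sensor and the transcription factors among the members, IRF1 alone was called, and only in ALDH1- cells. In ALDH1+ cells 0 of 5 were called, against 31.5% of all genes. In ALDH1- cells 1 rose and 0 fell, against 13.6% and 9.04% of all genes. STAT2 had 22.1, 24.3 and 22.7 CPM in EPZ5676 ALDH1+ libraries, against 23.9, 22.6 and 23.9 CPM in DMSO ALDH1+ libraries (log2 fold change -0.02, SE 0.08). In ALDH1- cells STAT2 had 20.4, 24.6 and 22.4 CPM with EPZ5676, against 23.5, 24.2 and 25.1 CPM with DMSO (-0.11, SE 0.08). The groups overlapped in both populations. IRF9, the DNA-binding part of the complex, had 0.678, 0.614 and 0.438 CPM in EPZ5676 ALDH1+ libraries, against 0.437, 0.398 and 0.620 CPM in DMSO ALDH1+ libraries (0.19, SE 0.31). In ALDH1- cells IRF9 had 0.734, 1.05 and 0.912 CPM with EPZ5676, against 0.513, 1.16 and 0.998 CPM with DMSO (0.02, SE 0.30). With SEs of this size, a change of IRF9 as large as that of IRF1 in ALDH1- cells would be under 2 SEs.

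IRF7, which drives interferon genes, had 6.70, 7.07 and 6.57 CPM in EPZ5676 ALDH1+ libraries, against 7.24, 7.93 and 9.84 CPM in DMSO ALDH1+ libraries (log2 fold change -0.31, SE 0.15). In ALDH1- cells IRF7 had 9.22, 7.65 and 7.41 CPM with EPZ5676, against 11.1, 7.55 and 8.45 CPM with DMSO (-0.16, SE 0.15). IRF7 was below DMSO in every EPZ5676 ALDH1+ library without a call (adjusted p = 0.14 in edgeR). IRF1, an activator that responds to interferon gamma and to NF-kB, had 41.4, 32.4 and 33.7 CPM in EPZ5676 ALDH1+ libraries, against 31.1, 24.8 and 31.4 CPM in DMSO ALDH1+ libraries (0.29, SE 0.11). Its adjusted p there was 0.0593 in edgeR, and it was called with the replicate block (0.018), no filter (0.026), total counts (0.041), DESeq2 (0.049) and without EPZ5676 ALDH1+ replicate 2 (0.045). In ALDH1- cells IRF1 had 46.9, 41.8 and 38.2 CPM with EPZ5676, against 27.8, 29.4 and 29.8 CPM with DMSO (0.55, SE 0.11, adjusted p = 0.00275 in edgeR). The IRF1 groups did not overlap in either population. IFIH1, or MDA5, a sensor of double-stranded RNA, averaged 19.3 ± 0.46 CPM in EPZ5676 ALDH1+ and 20.4 ± 0.67 CPM in DMSO ALDH1+ libraries (SD, n = 3 each). Its EPZ5676 ALDH1+ libraries were all below its DMSO ALDH1+ libraries. The IFIH1 log2 fold changes of -0.08 and 0.11 were not called.

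Tested members that rose tended to have lower levels. Split at their median level over all 12 libraries, 6.49 CPM, 13 of the 17 members with the lower level rose in both populations, or 76.5%, and 6 of the 17 with the higher level, or 35.3%. Over all genes tested the shares on either side of the same level were 16.4% and 9.72%. With the filter applied to the DMSO libraries alone, 30 of the 34 members still passed. The tested members that did not pass it are still counted in the shares above. IFI27, IFI44L, OASL and EPSTI1, which had too few reads to be tested, are not. The part of the filter in this pattern was not tested. The shares are a description and not a test.

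**Figure D3:**
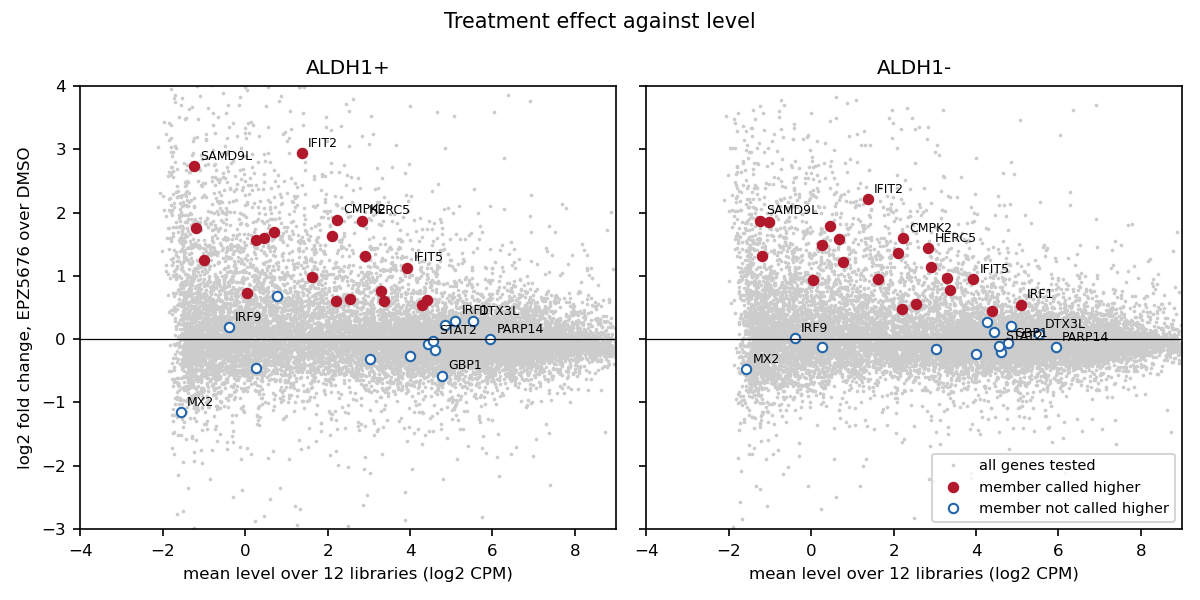
Log2 fold change (EPZ5676 over DMSO, y axis) against the mean level over 12 libraries (log2 CPM, x axis) in ALDH1+ cells (left) and ALDH1- cells (right), with members called higher as filled red points, other tested members as open blue points and all genes tested in grey. Red points lie mostly at low and middle levels, with SAMD9L and IFIT2 highest, while PARP14 and STAT2 at high levels lie near 0; grey points beyond the axes are not drawn.

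The ISRE core was found both in members that rose and in members that did not. Of the members with a RefSeq window, 11 of 17 that rose in both populations held it, and so did 5 of 7 that were not called in either. CMPK2, XAF1, SAMD9L, HERC6, OAS1 and IFI35 rose in both populations with no core match in this window, which says only that these letters are not in it.

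No difference in response between the 2 sorted populations was called. The test of the difference between the EPZ5676 effects in ALDH1+ and ALDH1- cells called 0 members and 0 of all genes in edgeR, with 1 member (GBP1) and 597 genes at an unadjusted p below 0.05. With DESeq2, limma-voom and the replicate block, 0 members were called as well. Between ALDH1+ and ALDH1- cells under EPZ5676, 0 members were called (4 at an unadjusted p below 0.05), against 0.0184% of all genes. There 4 members had every EPZ5676 ALDH1+ library below every EPZ5676 ALDH1- library and 1 had every one above, against 4.62% and 4.95% of all genes. Between the populations under DMSO, 0 members were called in edgeR (6 at an unadjusted p below 0.05), against 0% of all genes. With the replicate block, GBP1 was higher (log2 difference 0.32, adjusted p = 0.025) and MX1 (-0.41, 0.022), PARP14 (-0.42, 0.0045) and DTX3L (-0.27, 0.027) were lower in DMSO ALDH1+ than in DMSO ALDH1- cells. DESeq2 called MX1 and PARP14 lower. In DMSO, 7 members had every ALDH1+ library below every ALDH1- library and 1 had every one above, against 12.4% and 10.6% of all genes.

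Upstream of the members, the listed interferon genes other than IFNE were barely detected, and IFNA1 was the only interferon alpha gene on the list. Of 9 ligand genes, 8 did not pass the filter, and IFNA1, IFNG and IFNW1 had 0 reads in all 12 libraries. A count of 0 allows up to 0.0376 to 0.122 CPM, depending on the depth of the library. IFNB1 had 4 reads in the 6 EPZ5676 libraries and 0 in the 6 DMSO libraries, and IFNL3 had 5 and 0, all at or below 2 reads per library. IFNE, an epithelial interferon, was the ligand that could be tested. It had log2 fold changes of 0.43 in ALDH1+ and 0.68 in ALDH1- cells and was not called (adjusted p = 0.243 and 0.107 in edgeR). With the replicate block it was called higher in ALDH1- cells (adjusted p = 0.05 after rounding). IFNE had 1.32, 1.32 and 1.28 CPM in EPZ5676 ALDH1+ libraries, against 0.946, 1.19 and 0.832 CPM in DMSO ALDH1+ libraries. In ALDH1- cells it had 1.26, 1.72 and 1.55 CPM with EPZ5676, against 0.44, 1.19 and 1.19 CPM with DMSO. Every EPZ5676 library was above every DMSO library in each population.

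Of the 6 receptor genes, 2 rose and 1 fell in each population, against 31.5% of all genes called in ALDH1+ and 22.6% in ALDH1- cells. IFNGR1, the ligand-binding chain of the interferon gamma receptor, had 79.9, 88.6 and 94.7 CPM in EPZ5676 ALDH1+ libraries, against 173, 184 and 171 CPM in DMSO ALDH1+ libraries. Its log2 fold changes were -1.0 in ALDH1+ cells and -0.79 in ALDH1- cells. IFNGR2, the partner chain, rose by 0.47 and 0.44. IFNLR1, of the type III receptor, rose by 0.73 in ALDH1+ cells and by 0.35 in ALDH1- cells, where the call was lost without any 1 of 5 libraries and with no filter (adjusted p = 0.072). IFNAR1 was at 0.03 and 0.12, IFNAR2 at -0.08 and -0.11 and IL10RB at -0.07 and 0.01, and none of these 3 was called.

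Of 11 tested transducers and regulators, 3 rose and 1 fell in ALDH1+ cells (17.8% and 13.7% of all genes), and 2 rose and 0 fell in ALDH1- cells (13.6% and 9.04% of all genes). IRF5, a factor that induces inflammatory genes, rose by 1.01 and 0.91, and SOCS3, a feedback inhibitor of JAK kinases, by 1.20 and 1.07. SOCS1, of the same family, rose by 0.98 in ALDH1+ cells, and the kinase gene JAK2 fell by 0.42 there. In ALDH1- cells SOCS1 was at 0.33 and JAK2 at -0.21, not called.

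Of 9 tested nucleic acid sensors and adaptors, 3 rose and 0 fell in each population. Over all genes 17.8% rose and 13.7% fell in ALDH1+ cells, and 13.6% and 9.04% in ALDH1- cells. The 3 that rose belong to the sensing of DNA, and so short a list does not show a trend of that pathway. CGAS, the enzyme that detects DNA in the cytoplasm, had 4.74, 5.35 and 3.77 CPM in EPZ5676 ALDH1+ libraries, against 1.93, 2.75 and 2.27 CPM in DMSO ALDH1+ libraries (log2 fold change 1.02, SE 0.16). STING1, its membrane adaptor, had 26.5, 22.5 and 21.9 CPM in EPZ5676 ALDH1+ libraries, against 13.8, 11.9 and 14.2 CPM in DMSO ALDH1+ libraries (0.82, SE 0.14). IFI16, a DNA-binding protein of the same pathway, had 1.43, 1.83 and 2.06 CPM in EPZ5676 ALDH1+ libraries, against 0.910, 0.876 and 0.797 CPM in DMSO ALDH1+ libraries (1.06, SE 0.19). In ALDH1- cells the log2 fold changes were 1.06 for CGAS, 1.05 for STING1 and 1.38 for IFI16. None of the 3 had overlapping groups in either population.

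Of 26 further interferon-induced effectors tested, 5 rose and 4 fell in ALDH1+ cells and 2 rose and 0 fell in ALDH1- cells, against 17.8% higher and 13.7% lower of all genes in ALDH1+ cells and 13.6% and 9.04% in ALDH1- cells. DDX60L, a relative of DDX60, rose by 1.10 and 1.16, and GBP3, a relative of GBP1, rose by 0.86 and 0.79. IFITM1 and IFITM3, membrane proteins that block viral entry, fell in ALDH1+ cells by 0.91 and 0.32 on the log2 scale. In ALDH1- cells IFITM1 was at -0.24 and IFITM3 at -0.15, not called. DOT1L, the target of EPZ5676, was at -0.11 and -0.25 without a call, and with the replicate block its adjusted p in ALDH1- cells was 0.014; the inhibitor acts on the enzyme, so its RNA does not check the treatment.

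**Figure D4:**
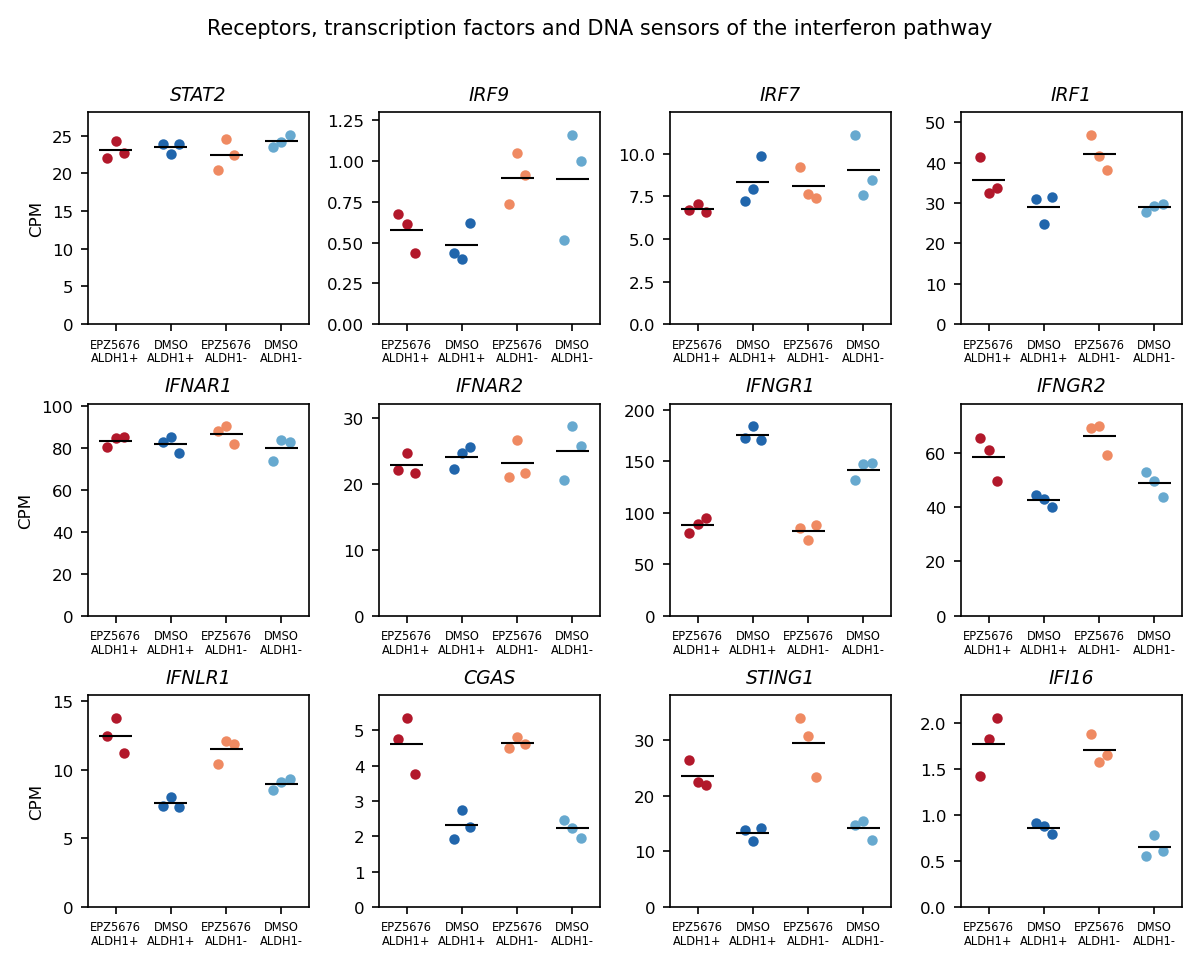
Level (CPM, linear axes from 0) in each library for transcription factors, receptors and DNA sensors of the interferon pathway, with EPZ5676 left of DMSO in each population and a line at each group mean. CGAS, STING1, IFI16 and IFNLR1 are higher and IFNGR1 is lower in the EPZ5676 libraries, while STAT2, IRF9, IFNAR1 and IFNAR2 overlap between treatments.

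All 7 epithelial markers were present. They summed to 16100 to 20300 CPM, the largest part of it EGFR, PGR had 1 read in all 12 libraries together, and ESR1 reads were present at a low level. In ALDH1+ cells 1 of the 7 epithelial markers rose (EGFR, 0.63) and 4 fell (CDH1, EPCAM, KRT8 and KRT19, at -0.55, -0.28, -0.25 and -0.31), against 17.8% and 13.7% of all genes. In ALDH1- cells 0 rose and 1 fell (CDH1, -0.67), against 13.6% and 9.04%. With the replicate block in edgeR, EGFR was called higher there (0.31, adjusted p = 0.0094) and KRT19 lower (-0.2, 0.028). Some other alternatives also called them. The EPCAM and KRT8 calls in ALDH1+ cells were each lost without some single libraries. Among 10 leukocyte and plasmacytoid dendritic cell markers, LILRA4, CLEC4C, MS4A1 and NKG7 had 0 reads in all libraries, and CD3E, CD68 and LYZ had at most 3 reads each in total. Their summed level was 9.24 to 12.3 CPM in EPZ5676 ALDH1+ and 7.09 to 8.51 CPM in DMSO ALDH1+ libraries, and 11.3 to 16.7 CPM in EPZ5676 ALDH1- and 8.75 to 11.3 CPM in DMSO ALDH1- libraries. Most of it was CSF1R, which rose by 0.75 and 0.67, with PTPRC below 1 CPM rising by 1.53 and 2.06 and CD14 falling by 1.21 in ALDH1+ cells. The CSF1R call in ALDH1- cells and the PTPRC call in ALDH1+ cells were each lost without some single libraries. The 5 stromal and endothelial markers summed to 21.8 to 25.4 CPM in EPZ5676 ALDH1+ and 9.13 to 14.4 CPM in DMSO ALDH1+ libraries, mostly COL1A1. In ALDH1- cells they summed to 19 to 21.6 CPM with EPZ5676 and 10.8 to 13.9 CPM with DMSO. The part of these genes in the rise of the interferon-stimulated genes was not tested.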

How the data were processed

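RNA-seq of 12 libraries from sorted MDA-MB-468 cells was analysed from the authors' deposited table of raw read counts per Ensembl gene, in whole numbers. The submitters' processing notes name the genome build hg19 and the tools STAR and Trim Galore. No label or note used here names the counting program or its strand setting, and the library kit was directional per the labels' protocols. Symbols were matched to 51959 of 57783 IDs, and 5824 had none. Library totals were 24348594 to 80195050 counts, and members with few counts are the least precise.

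Counts were normalised by TMM (factors 0.975 to 1.021), filtered with filterByExpr by group and tested with edgeR 4.0.16 in R 4.3.3, with 1 term per group over all 12 libraries. SE is the log2 fold change divided by the square root of F. Alternatives were other scalings and filters, DESeq2 1.42.0, limma 3.58.1 (voom), only the groups compared, a replicate block, and leaving out each library. Exon lengths, chromosomes and overlaps came from GENCODE 29 by gene ID, and promoters from RefSeq GRCh38.p14; the deposited counts carry no coordinates.

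Replicate numbers paired the libraries: over 13576 genes, deviations from group means correlated at 0.16 to 0.6 in the 18 pairs with the same number and at -0.61 to 0.18 in the other 36 pairs, and 12 of 12 libraries correlated best with their own number. The pairing comes from the data, as the labels only number the replicates.

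The members and gene lists were chosen with earlier results of these data known. Values in every library are given for the 10 called members with the largest change, members called lower, and IRF and STAT members. From each other list up to 4 called genes with the smallest p are named, with all receptors and DOT1L; IFNE, marker genes and ligands with few reads were named after their values were seen. One gene that this rule would name is not reported here.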

Additional observations from a re-analysis of the deposited data

How the results depend on the processing

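Of 22 members called in ALDH1+ cells, 18 kept their call under every alternative in which they were tested, and of 21 in ALDH1- cells 13 did. No member or named gene that was called in a comparison changed direction. Members called lower in ALDH1+ cells numbered 2, and 1 with at least 1 CPM in 3 libraries and with DESeq2; leaving out 1 library gave 1 to 3. Members called higher in ALDH1- cells ranged from 13 to 21 over the leave-one-out fits and those called lower from 0 to 1, with 13 higher without EPZ5676 ALDH1- replicate 2. Over the same leave-one-out fits, members higher in both populations ranged from 12 to 19, with 12 without EPZ5676 ALDH1- replicate 2. Members lower in both ranged from 0 to 1 in these fits, and the single one was USP18, without EPZ5676 ALDH1- replicate 3. Members higher in ALDH1+ cells ranged from 17 to 21 over the leave-one-out fits.

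With the replicate block, 23 members were higher and 3 lower in ALDH1+ cells, 22 higher and 0 lower in ALDH1- cells, and 22 higher in both. Between treatments it changed no other call of a member than those given with the results. Outside the members it also changed calls, among them those of EGFR and KRT19 in ALDH1- cells. Between populations in DMSO, edgeR called 0 members, against 1 higher and 3 lower with the replicate block, 1 higher and 3 lower with no filter, and 2 lower with DESeq2; the cause was not tested. The share of members with an ISRE core was 71.0%, 45.2% with the longer form and 51.6% in the window of 100 bases before to 50 after the start, which is shorter; the share with a GAS motif was 32.3%, and 16.1% in that window. Depth limits RSAD2, XAF1, SAMD9L, MX2, IRF9 and the 4 members below the filter most.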
